A study of Mus musculus with 25 samples.

Results

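The response of the mouse hypothalamus to tumor cells under the skin was compared between 72 h and 18 h after injection, in the total RNA samples that were hybridised in both dye orientations. These are 10 of the 25 arrays of the series, which form 2 biological replicates at 72 h (replicates 3 and 4) and 3 at 18 h (replicates 3, 4 and 5). Each replicate occupied 2 arrays on a single print platform, with tumor RNA in Cy5 on the first and in Cy3 on the second. The quantity compared is the log2 ratio of tumor over PBS, averaged over both orientations, and the difference is 72 h minus 18 h. A gene entered when both 72 h replicates and at least 2 of the 18 h replicates gave a value in both orientations, which held for 1703 of the 8726 genes named on the array. Of these, 957 had 3 values at 18 h and 746 had 2.

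At both times the mice were Balb/c males, injected at an age of 8 weeks. The tumor groups received 1000000 CT-26.WT cells subcutaneously in 300 µl PBS, and the control groups the same volume of PBS without cells. CT-26.WT is a colon carcinoma line derived from this mouse strain, so the cells meet no mismatch of tissue type. RNA was isolated with TRIzol. The series calls the replicates biological, but it is not said how many mice went into each, so a p-value here speaks only of the scatter among these samples, part of which may be technical.

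The hypothalamus sets appetite, body temperature, fluid balance and the hormonal stress response, and much of this runs through small peptides that its neurons release. It also senses signals carried in the blood, among them cytokines, glucocorticoids, leptin and insulin. Immediate early genes, interferon-induced genes and neuropeptide precursors are the transcripts through which such signals are usually read in this tissue. Of 9 marker genes that define hypothalamic tissue, 7 were named on the array and all 7 were measured on at least 5 of the 10 arrays. They include Avp (vasopressin), Oxt (oxytocin), Hcrt (orexin), Pmch (melanin-concentrating hormone) and Cartpt, and 4 of them could be tested.

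The arrays differed in how much they measured. Between 3074 and 9839 spots per array were above 0 in both channels, the fewest on the array of 72 h replicate 4 with tumor in Cy5, and the median signal over background lay between 0.82 and 1.92. The arrays of 18 h replicate 4 stood apart. Their spot brightness followed that of the remaining arrays with Spearman rho of 0.165 and 0.287, where the other 8 arrays lay between 0.358 and 0.572, and the SD of this replicate's log2 ratios over genes was 0.37, against 0.17 to 0.25 in the others. Results are therefore also given without it where enough values remain. Of the 24 genes with the smallest p of the time difference, named below, 17 could still be tested without it. The direction of every ratio is likely rather than settled. The files name the channels A and B, the dyes were assigned from their order in the labels, and the sign matched that of the authors' deposited values on 10 of 10 arrays. The array numbers run from 450 to 455 at 72 h and from 513 to 564 at 18 h. The labels do not say what these numbers stand for. If they follow the order of hybridisation, that order and the time after injection cannot be told apart.

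No gene had a difference between 72 h and 18 h that passed the test after adjustment over all genes. In limma, 0 of 1703 genes (0%) passed an adjusted p of 0.05, and the smallest adjusted p was 0.981. Without adjustment, 53 genes (3.11%) had a p under 0.05, 18 higher (1.06%) and 35 lower (2.06%) at 72 h, where 85.15 would fall by chance. The number of genes with a difference past 0.5 in either direction was also 53 (3.11%). Without 18 h replicate 4, 0 of 1443 genes passed, the smallest adjusted p was 0.823, and 74 genes had an unadjusted p under 0.05. The differences ran from -0.98 to 0.77 on the log2 scale, with a 5th percentile of -0.38, a 95th percentile of 0.32 and a median of -0.02. For a single gene, an exact permutation test of 2 against 3 replicates has 10 splits and cannot give a two-sided p below 0.2.

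The precision sets what could have been seen. The median SE of a difference was 0.18, and the 95% interval reached 0.43 to either side in the median gene, which is a factor of 1.34. For 8 in 10 genes the interval reached between 0.36 and 0.57. These intervals hold for 1 gene without adjustment, and a call over 1703 genes needed a larger or tighter difference: none of the 53 genes past 0.5 passed in limma. The ratios were taken on dissected tissue, in which more or fewer cells of a type and more or less RNA per cell cannot be told apart.

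**Figure D1:**
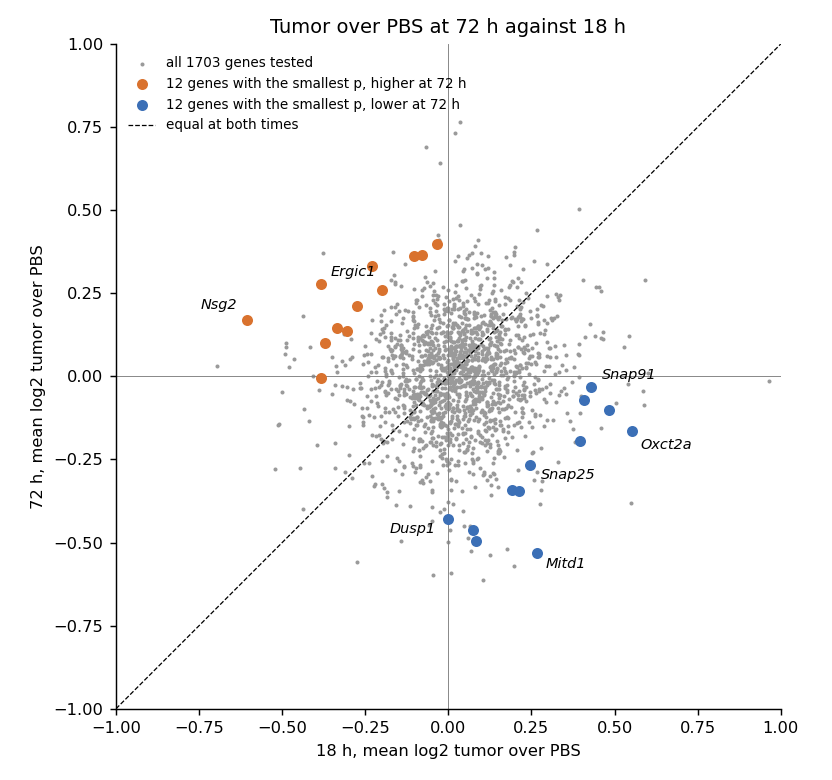
Mean log2 tumor over PBS at 18 h (x axis, 2 or 3 replicates) against 72 h (y axis, 2 replicates) for the 1703 genes tested, with the 12 genes of smallest p in each direction in colour and the dashed line marking equal values. The mean ratio had the same sign at both times in 944 genes (55.4%). The coloured genes lie at the edges of the cloud, chosen for their distance from the dashed line.

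The tumor over PBS ratios at the separate times did not pass either. At 72 h, 0 of 1703 genes (0%) were called in limma, with a smallest adjusted p of 0.967 and 50 genes (2.94%) at an unadjusted p under 0.05, of which 16 (0.94%) were above and 34 (2%) below 0. At 18 h, 0 of 1703 (0%) were called, with a smallest adjusted p of 0.857 and 89 genes (5.23%) at an unadjusted p under 0.05, of which 61 (3.58%) were above and 28 (1.64%) below 0. The ratio had the same sign at both times in 944 genes (55.4%).

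Of the 24 genes with the smallest p of the difference, Snap25 and Snap91, which act at synapses, were lower at 72 h, and Nsg2, also of neurons, was higher. Snap25 encodes a membrane SNARE that drives fusion of synaptic vesicles. Its log2 ratio was 0.52, 0.08 and 0.14 in 18 h replicates 3, 4 and 5, and -0.24 and -0.29 in 72 h replicates 3 and 4. The groups did not overlap, with every 18 h value above 0 and both 72 h values below 0, and the difference was -0.51 ± 0.18 (SE). Snap91, the clathrin assembly protein AP180 of synaptic vesicle recycling, was at 0.22, 0.58 and 0.49 at 18 h and at -0.09 and 0.02 at 72 h. Its difference was -0.46 ± 0.17 (SE), and it was among the 5 genes of smallest p at 18 h. Groups that do not overlap were common, in 416 of the 1703 genes (24.4%), with 156 higher (9.16%) and 260 lower (15.3%) at 72 h, so the separation of a single gene says little with 2 against 3 values.

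Neuronal genes took no shared direction. Nsg2, a vesicle protein of neurons, had the largest difference above 0, at 0.77 ± 0.29 (SE), from 18 h values of -1.04 and -0.17 and 72 h values of 0.32 and 0.02. The lower 18 h value came from replicate 4, and Nsg2 could not be tested without that replicate. Cplx1, a complexin that clamps vesicle fusion, was at -0.03, -1.64 and -0.41 at 18 h and at 0.00 and 0.06 at 72 h, a difference of 0.73 ± 0.40 (SE) that was 0.26 without 18 h replicate 4. Map2, a microtubule protein of dendrites, was likewise at -1.05 in that replicate. Of 7 pan-neuronal markers, 3 had a difference above 0, and their median difference was 0.00. Of 28 vesicle trafficking genes, 14 were above 0.

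Of 17 ion channel genes tested, 12 had a difference below 0 and 5 above, with a median of -0.11, where 45.2% of all genes tested were above 0 with a median of -0.02. Kcne1, an accessory subunit of potassium channels, was at 0.26 and -0.05 at 18 h and at -1.07 and -0.15 at 72 h. Its difference of -0.72 ± 0.30 (SE) rested largely on 72 h replicate 3. Cacna1g, a T-type calcium channel, was at -0.41 ± 0.21 (SE). Kcna2 and Cacna1d also did not overlap between the times, at -0.33 and -0.23, while Kcnh7 did not overlap in the opposite direction, at 0.19. The 4 of 17 that did not overlap are 23.5%, against 24.4% of all genes tested. The channel median was not firm. It was -0.15 without 18 h replicate 4 (2 of 16 genes above 0) and -0.14 without 18 h replicate 5, but -0.02 without 18 h replicate 3 and -0.03 without 72 h replicate 4. It was also -0.01 after loess within print blocks and -0.02 in the authors' values, close to the median of all genes in the main setting. The genes tested changed with each of these settings, so the channel medians were not held to the same members. Solute carriers had 20 of 32 below 0 and a median of -0.03, with 7 members not overlapping below and 1 above, or 25% against 24.4% of all genes.

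**Figure D2:**
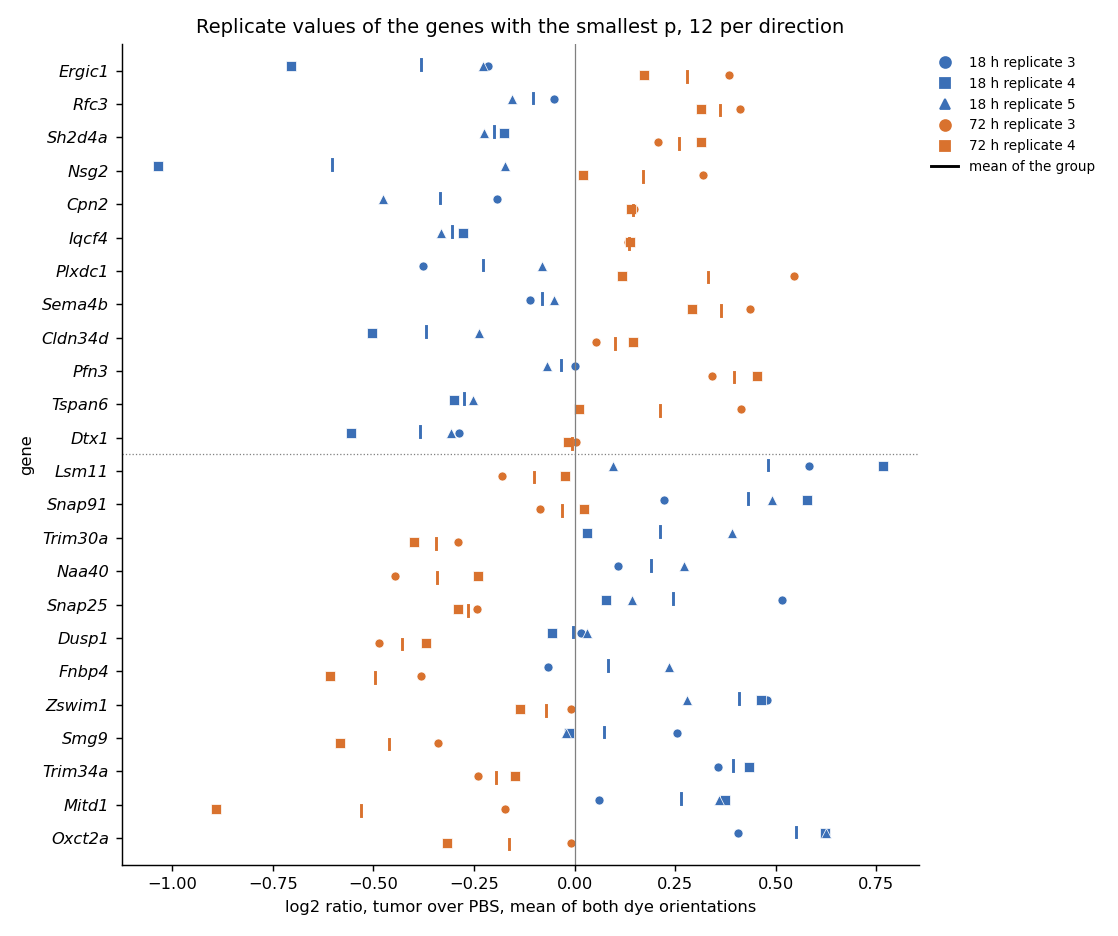
Replicate values of the 24 genes with the smallest p of the difference, 12 higher (above the dotted line) and 12 lower at 72 h. The x axis is the log2 ratio of tumor over PBS, blue symbols are 18 h replicates, orange symbols are 72 h replicates, and short bars are group means. In all 24 genes the groups are separate, which is what the smallest p selects, and none passed the adjusted threshold.

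The smallest p of all belonged to Oxct2a, a testis form of the enzyme that activates ketone bodies for use as fuel. Of the 24 genes with the smallest p, 20 were brighter than the median gene of the array, and Oxct2a was not among them. Its log2 ratio was 0.41, 0.62 and 0.63 in the 18 h replicates, and -0.01 and -0.32 in the 72 h replicates. The 18 h values were close together and high, and the 72 h values were at or below 0, which gave a difference of -0.71 ± 0.17 (SE) with a limma adjusted p of 0.981. Ergic1, a protein that cycles between endoplasmic reticulum and Golgi, had the smallest p among genes higher at 72 h. It was at -0.21, -0.71 and -0.23 at 18 h and at 0.38 and 0.17 at 72 h, a difference of 0.66 ± 0.20 (SE), or 0.50 without 18 h replicate 4. Mitd1, which acts in the final separation of dividing cells, was at -0.80 ± 0.23 (SE), with 72 h values of -0.17 and -0.89 that differed widely.

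The orientations of these genes were not always alike. For Ergic1 at 72 h, replicate 3 gave -0.06 with tumor in Cy5 and 0.83 with tumor in Cy3, and replicate 4 gave 0.76 and -0.41. For Oxct2a, 72 h replicate 4 gave -1.05 with tumor in Cy5 and 0.42 with tumor in Cy3. The means that separate the times thus average values of opposite sign in these replicates. From the arrays with tumor in Cy5 alone, the difference was -1.06 for Oxct2a and 0.77 for Ergic1, and from those with tumor in Cy3 alone it was -0.36 and 0.55.

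Dusp1 encodes a phosphatase that switches off MAP kinases and is induced both by neuronal activity and by glucocorticoids. Its ratio was 0.02, -0.06 and 0.03 at 18 h, and -0.49 and -0.37 at 72 h. The 18 h values sat at 0 and the 72 h values close together below it, and Dusp1 had the smallest p of all genes at 72 h, at -0.43 ± 0.11 (SE). The difference was -0.43 ± 0.15 (SE). It was -0.83 from the arrays with tumor in Cy5 alone and -0.02 from those with tumor in Cy3 alone. Among the other immediate early genes, Fosb, a Fos family factor, was at 0.11, Nr4a2, a nuclear receptor, at -0.15, Ppp1r15a, a phosphatase subunit of the stress response, at 0.22 and Bdnf, a growth factor of neurons, at 0.37. Of the whole list, 5 of 7 members were above 0. In the MAP kinase cascade, 5 of 12 were above 0, and Map3k2, an upstream kinase, was at -0.56 ± 0.25 (SE). Of the glucocorticoid-responsive genes, 1 of 4 was above 0, with Mt1, a metallothionein, at -0.05 ± 0.19 (SE) and Cdkn1a, an inhibitor of cell division, at 0.00 ± 0.17 (SE).

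Innate immune genes held 2 members of the TRIM family among those with the smallest p. Trim34a was at 0.36 and 0.43 in 18 h replicates 3 and 4, and at -0.24 and -0.15 at 72 h, a difference of -0.59 ± 0.17 (SE). Trim30a was at 0.03 and 0.39 in 18 h replicates 4 and 5, and at -0.29 and -0.40 at 72 h, a difference of -0.56 ± 0.19 (SE). Both belong to a ring finger family with interferon-inducible members. Neither could be tested without 18 h replicate 4, which gave 1 of the 2 values of each at 18 h. Sting1, the adaptor of cytosolic DNA sensing, was at -0.39 ± 0.19 (SE), with 18 h values from -0.09 to -0.02 and 72 h values of -0.70 and -0.17, and it was -0.13 without 72 h replicate 3. Of the interferon and antigen presentation list, 3 of 5 members were above 0, and Isg15, a ubiquitin-like interferon product, was at -0.16 ± 0.20 (SE).

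Cytokines, chemokines and the NF-kB response had 19 genes tested, of which 12 lay on the positive side, and their median was 0.09. Csf3r, the receptor for granulocyte colony-stimulating factor, had the largest value, 0.71 ± 0.42 (SE), which came from 72 h replicate 3 alone (1.58, against -0.12 in replicate 4). Tnfsf9, a costimulatory ligand, was at 0.36 ± 0.20 (SE). The list median was -0.03 without 72 h replicate 3 and -0.02 without 72 h replicate 4. The filter then asked for a value in the remaining 72 h replicate only. This raised the genes tested from 1703 to 2156 and 4019, so these medians were not held to the same 19 genes.

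Among transcripts of translation, cytosolic ribosomal protein genes had 18 of 23 members above 0, with a median difference of 0.12. Rpl38, of the large subunit, was at -0.10, -0.06 and -0.35 at 18 h and at 0.26 and 0.16 at 72 h, and its difference was 0.38 ± 0.16 (SE). Rps27, of the small subunit, was at 0.33 ± 0.16 (SE). Rpl7a and Rpl10a also did not overlap between the times, so 4 of 23 (17.4%, against 24.4% of all genes) did so above 0 and 0 below. The size of the list difference depended on 18 h replicate 4. The median of the list was 0.12 and 0.13 in the 72 h replicates, -0.10 and -0.18 in 18 h replicates 3 and 5, and 0.30 in 18 h replicate 4, above both 72 h values. Without 18 h replicate 4 the list was above 0 in 19 of 21 members with a median of 0.24, and without 18 h replicate 5 the median was 0.03. It was 0.25 from the arrays with tumor in Cy5 alone and -0.03 from those with tumor in Cy3 alone. These medians were not held to the same 23 genes. Without 18 h replicate 5, 985 genes were tested, with tumor in Cy5 alone 1993 and with tumor in Cy3 alone 5892.

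Oxidative phosphorylation showed the same split between replicates. Its 28 genes had 18 members above 0 and a median difference of 0.05. The list median was 0.34 in 18 h replicate 4 against -0.05 and -0.02 in the other 18 h replicates and 0.09 and 0.07 at 72 h. Cox6c, a subunit of cytochrome oxidase, was at 0.49 ± 0.20 (SE) and Ndufb5, of complex I, at 0.32 ± 0.18 (SE). Cox8a, a further cytochrome oxidase subunit, was at -0.37 ± 0.22 (SE). Without 18 h replicate 4, 21 of 25 members were above 0 and the median was 0.15, and without 18 h replicate 5 the median was -0.05. Without 18 h replicate 5 only 985 genes were tested, so fewer members of the list entered. The mitochondrial ribosome had 9 of 19 above 0.

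RNA splicing genes had 12 of 18 members below 0, with a median of -0.09, and 8 (44.4%, against 24.4% of all genes) did not overlap between the times, 5 lower and 3 higher. Lsm11, a subunit of the U7 particle that processes histone transcripts, was at 0.58, 0.77 and 0.10 at 18 h and at -0.18 and -0.02 at 72 h. Its difference was -0.58 ± 0.21 (SE). Prpf31, a spliceosome protein, was at -0.66 ± 0.30 (SE), and its ratio followed the dye far more strongly than the sample. Smg9, of the complex that starts nonsense-mediated decay, was at 0.25, -0.01 and -0.02 at 18 h and at -0.34 and -0.58 at 72 h, a difference of -0.54 ± 0.17 (SE). The splicing median was 0.02 after loess within print blocks and 0.03 from the arrays with tumor in Cy3 alone. These settings tested 1621 and 5892 genes, so the medians were not held to the same 18 genes.

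**Figure D3:**
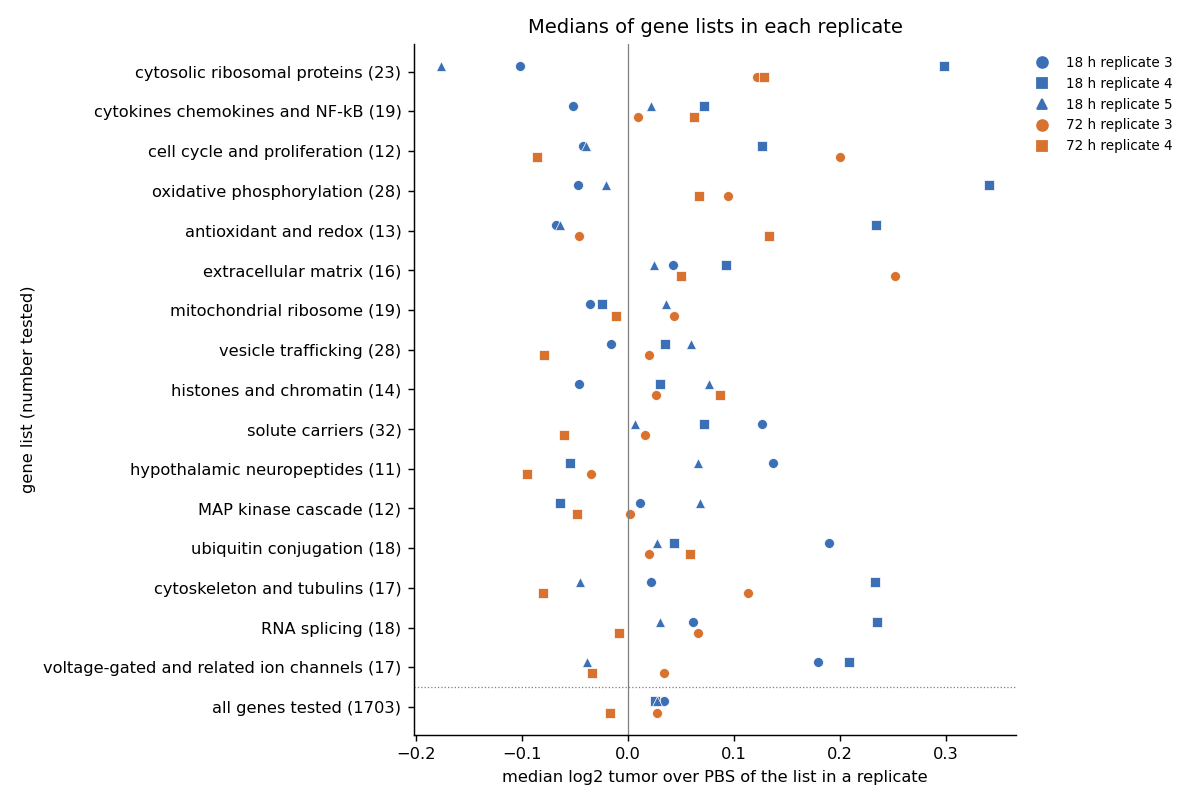
Median log2 tumor over PBS of each gene list with 10 or more genes tested (number in brackets) in each replicate, ordered by the list's median difference, with all genes tested at the bottom. For ribosomal proteins and oxidative phosphorylation, 18 h replicate 4 (blue square) lies above both 72 h replicates, and 18 h replicates 3 and 5 lie below them.

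Precursors of hypothalamic neuropeptides were not separated by time as a group. Of 11 tested, 5 were above 0, with a median of -0.03. Avp was at 0.45 and 0.22 in 18 h replicates 3 and 5 and at 0.45 and -0.56 in the 72 h replicates, so the 72 h replicates opposed each other. Oxt was at 0.05 ± 0.19 (SE), Cartpt at -0.15 ± 0.23 (SE) and Sst, somatostatin, at 0.09 ± 0.17 (SE). Nucb2, the precursor of nesfatin, was at 0.16, 0.03 and -0.19 at 18 h and at -0.03 and -0.96 at 72 h, and its difference of -0.50 ± 0.26 (SE) was -0.03 without 72 h replicate 4. Nmu, neuromedin U, which lowers food intake, was at -0.48 ± 0.24 (SE). Gad1, which makes the transmitter GABA, was at -0.47 ± 0.26 (SE), again from a low 72 h replicate 4 (-0.82). Insr, the insulin receptor, and Irs2, its adaptor, were at 0.09 ± 0.23 (SE) and 0.04 ± 0.16 (SE). Clock, of the circadian oscillator, was at -0.25 ± 0.25 (SE).

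Markers of other cell types were sparse. Among microglia and macrophage markers, 7 of 12 were named on the array, all 7 were measured on at least 5 arrays, and 2 were tested, Cd68 at -0.16 and C1qb at -0.15. Cd68 was at -0.22, 0.18 and 0.33 at 18 h and at -0.33 and 0.21 at 72 h. C1qb was at 0.21 and -0.16 at 18 h and at 0.03 and -0.29 at 72 h. In both, the replicates of each time differed in sign and the times overlapped. Of 7 astrocyte markers, 3 were named on the array and 0 were tested, and of 7 oligodendrocyte markers 1 was tested. In wider gene lists, astrocyte genes were above 0 in 1 of 5, with Sox9, a glial transcription factor, at -0.31 ± 0.20 (SE) and Ndrg2 at -0.08 ± 0.15 (SE). Myelin genes of the wider list were above 0 in 3 of 5. Of 5 blood markers, 2 were tested, both of B cells, and Cd79a was at -0.60 through 72 h replicate 3 (-1.09, against -0.10 in replicate 4). The globin genes of this set, Hba-a1 and Hbb-b1, were not found among the gene names of the array. The part of cell composition in the values above was not tested.

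The remaining genes with the smallest p spread over unrelated functions. Higher at 72 h were Rfc3, a clamp loader subunit of DNA replication (0.47 ± 0.17, SE), Sh2d4a, an SH2 domain adaptor (0.46), Cpn2, the regulatory subunit of carboxypeptidase N (0.48), Iqcf4 (0.44), Plxdc1, a plexin domain protein of endothelium (0.56), Sema4b, a semaphorin (0.45), Cldn34d, of the claudin family (0.47), Pfn3, a testis profilin (0.43), Tspan6, a tetraspanin (0.49), and Dtx1, a regulator of Notch (0.38). Lower at 72 h were Zswim1 (-0.48), Fnbp4, a formin-binding protein (-0.58), and Naa40, an acetyltransferase of histone tails (-0.53). Of the 24 genes named for the smallest p, 10 had 3 values at 18 h, and the mean ratios at 18 h and 72 h had opposite signs in 22. At 18 h alone, Cavin1, of caveolae, was at 0.46 ± 0.10 (SE) and Prm3, a protamine of sperm, at 0.53 ± 0.12 (SE). At 72 h alone, Camk2n2, an inhibitor of CaM kinase II, was at -0.50 ± 0.13 (SE).

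The dye left a signal that recurred in the replicates. The dye effect is the log2 ratio of Cy5 over Cy3 averaged over both orientations of a replicate, in which the sample cancels. Its test took all 5 replicates together, while tumor over PBS was tested at each time apart. The numbers of genes called are therefore not on equal terms. In limma, 17 of 1703 genes (0.998%) passed an adjusted p of 0.05, all with lower signal in Cy5, and 158 genes (9.28%) had an unadjusted p under 0.05, 65 higher (3.82%) and 93 lower (5.46%) in Cy5. The count was 0 of 1703 with trend and robust eBayes, where the smallest adjusted p was 0.201. Without 18 h replicates 3, 4 and 5 it was 2 of 1189, 21 of 1443 and 1 of 985 genes. Without 72 h replicates 3 and 4 it was 7 of 2156 and 26 of 4019. The genes tested differ, so these counts do not compare directly. Krt14, a keratin of basal epidermis, was at -2.61 ± 0.10 (SE, n = 4, adjusted p = 7.29e-06 in limma), Chst13, a chondroitin sulfotransferase, at -2.43 ± 0.23 (SE, n = 5) and Ccr3, the eotaxin receptor, at -2.17 ± 0.11 (SE, n = 4). E2f5, a cell cycle factor, was at -1.75 ± 0.12 (SE, n = 4). The genes of smallest p with higher signal in Cy5, Tnfsf9, Arhgap6, Ptprj and Tstd3, were at 0.27 to 0.45 and did not pass. For a difference in dye effect between the times, 0 genes were called in limma and 126 had an unadjusted p under 0.05.

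With both orientations averaged, some genes with a strong dye effect lay near 0 and others did not. Krt14 was at -2.41 with tumor in Cy5 and 2.35 with tumor in Cy3 in 72 h replicate 3, and its mean tumor over PBS ratios lay between -0.18 and 0.15 in the 4 replicates measured. Chst13 spanned -3.01 to 3.24 in 72 h replicate 3 and averaged 0.12. Ccr3 was at -0.21 and 0.09 in the 18 h replicates measured, and at 0.62 and -0.35 at 72 h. For E2f5 the orientations did not balance in 72 h replicate 4, where 0.50 and -3.37 averaged to -1.43, and its difference between the times was -0.93 ± 0.57 (SE). Of the 24 genes with the smallest p of the time difference, Sema4b was the 1 with a called dye effect (-1.77), and its difference between the times was 0.45.

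**Figure D4:**
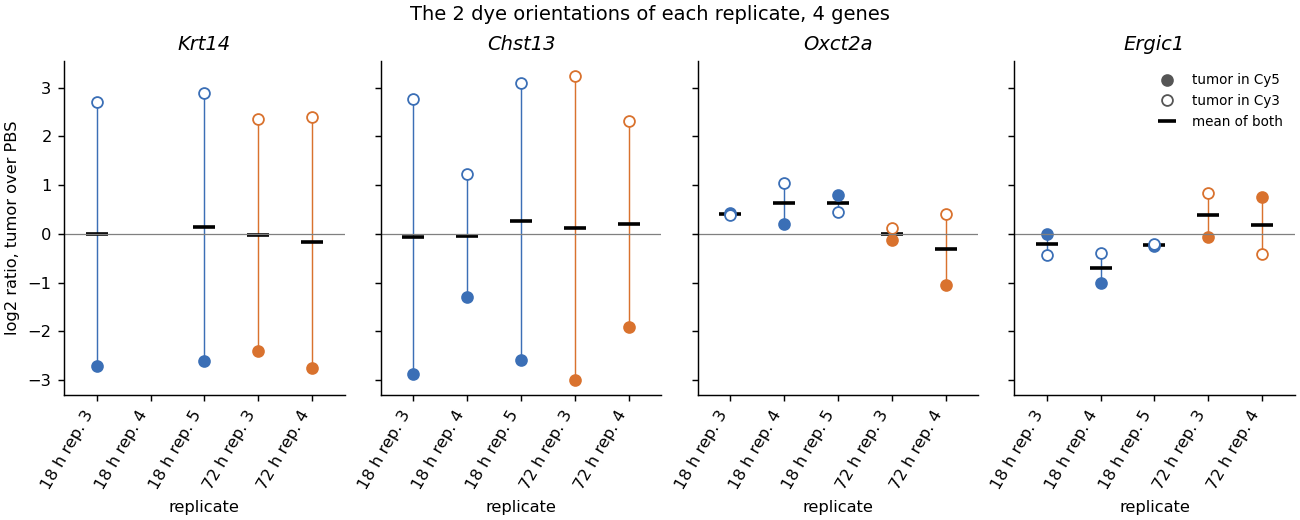
Log2 tumor over PBS in the 2 dye orientations of each replicate (filled, tumor in Cy5; open, tumor in Cy3) with their mean (black bar) for 2 genes with a called dye effect, Krt14 and Chst13, and the genes with the smallest p of the time difference in each direction, Oxct2a and Ergic1. Krt14 and Chst13 lie far apart on both sides of 0 in the measured replicates, less so for Chst13 in 18 h replicate 4, and average between -0.18 and 0.26.

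Across genes, the replicates shared the dye effect and little of the tumor over PBS ratio. Over the 10 pairs of replicates, the tumor over PBS ratio correlated at a median r of 0.01 (from -0.05 to 0.14), and the 72 h replicates with each other at 0.00. The dye effect correlated at a median of 0.21, from 0.11 to 0.65, and at 0.20 or more in the pairs without 18 h replicate 4. Within a replicate, the ratios of the orientations, turned to tumor over PBS, correlated at -0.57, 0.05 and -0.59 in 18 h replicates 3, 4 and 5 and at -0.45 and -0.33 in 72 h replicates 3 and 4. Between 34.6% and 51.0% of genes had the same sign in both orientations. The time difference itself, taken from each orientation apart, had the same sign in 718 of 1703 genes (42.2%) and correlated at -0.24 across genes. Genes are not independent replicates, and the arrays share labelling chemistry and print layout, so these correlations describe the arrays.

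**Figure D5:**
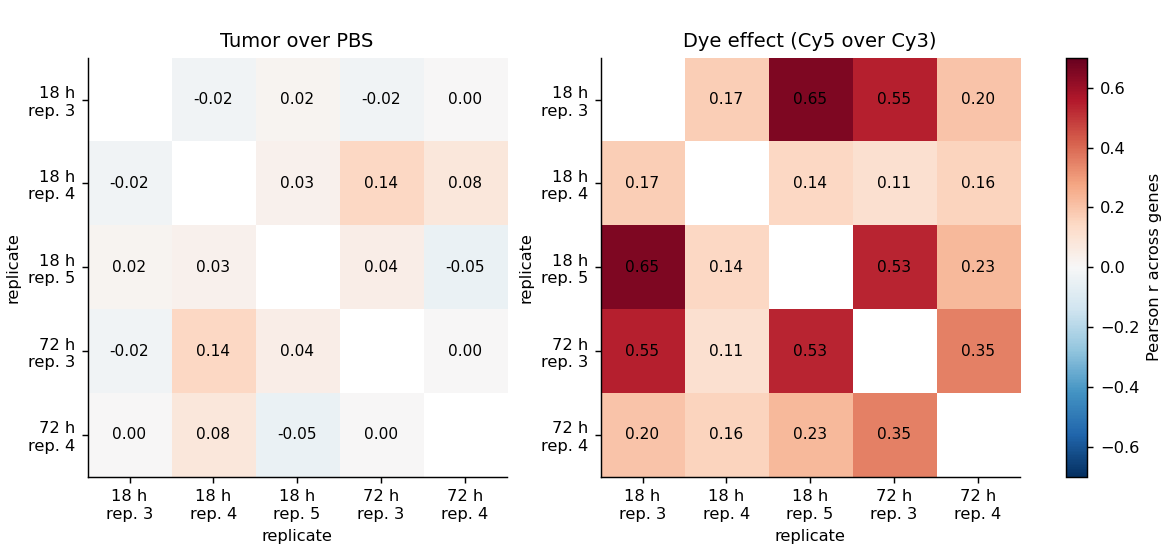
Pearson r across genes between the 5 replicates, for the tumor over PBS ratio (left) and the dye effect (right), on the same colour scale. Tumor over PBS lies between -0.05 and 0.14, and the dye effect between 0.11 and 0.65, with the lowest dye values in the row of 18 h replicate 4.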

How the data were processed

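Hypothalamus RNA was measured on 2-colour arrays of printed oligonucleotides, with tumor in one channel and PBS in the other. Each array came with 3 scan files. Per the file headers, the deposited values are spot intensities of channels A and B with local background already subtracted. Exact zeros made up 28.0% of the 604800 values, a further 46 were negative, and a scan used those spots where both channels exceeded 0. The scans of an array correlated at r of 0.589 or more. The number of arrays limits the precision.

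The authors' deposited log ratios per spot were used as an alternative and read as natural log. Their spread was 0.617 of the log2 ratios on bright spots (median over 10 arrays; a natural log gives 0.693), their medians lay between -0.0041 and 0.0061, so they were centred, and their sign matched tumor over PBS on 10 of 10 arrays. Neither their log base and normalization nor the scanner settings were stated.

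Per scan, log2 of B over A was normalized by intensity loess (limma loessFit, span 0.3, 4 iterations). Scans were averaged, then both orientations. In the platform annotation, 9066 spots had a single gene symbol, 12 several and 1002 none, and RefSeq names were found for 8980. The probe of highest mean intensity stood for a gene, which left 8726 genes. Tests ran in R 4.3.3 with lmFit and eBayes of limma 3.58.1 (tables with the data.table package, version 1.17.8), 1 value per replicate, two-sided, with Benjamini-Hochberg adjustment over the 1703 genes. The fit was also run on simulated independent normal noise, unlike these arrays, as a check of the code only. That run is no support for the results. Alternatives varied the replicates, orientations, scans, normalization, background, probes, filters and model.

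Named genes were the 12 of smallest p in each direction, the 16 that could be tested of a panel of 59 genes, the 2 highest and 2 lowest of each of 29 lists with 5 or more genes tested (of 41 lists), the 5 of smallest p at each time and the 4 of smallest dye p in each direction. Not all are printed. Genes, lists and comparison were chosen with earlier results of these data known.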

Additional observations from a re-analysis of the deposited data

Results flagged for a closer look

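The dye effect of E2f5 had a replicate apart from the others. It was -1.35 in 18 h replicate 3 and between -1.93 and -1.84 in the 3 others measured. The gap to the nearest value was 0.846 of the whole range, above Dixon's critical value for 4 samples. It was the 1 of 21 genes checked in this way that exceeded its critical value, and chance alone gives about 1 in 20.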

How the results depend on the processing

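In limma, the count of genes called between 72 h and 18 h was 0 in 21 of 22 alternatives, with smallest adjusted p from 0.0625 to 0.998. With replicate number as a replicate block it was 1, Aen, at an adjusted p of 0.0285. The numbers 3 and 4 are not said to pair samples, deviations correlated at -0.06 and -0.03 between same-numbered replicates, and 2 pairs are too few to decide. At 72 h the count was 0 to 4 when 1 replicate was left out. The 4, Csf3r, Galnt16, Vwa5a and Zfp385a, came without 72 h replicate 4, where a lone sample is assumed to vary like those of 18 h. From arrays with tumor in Cy5 alone, 7 of 1993 genes passed at 72 h and 5 of 1993 at 18 h (Ccr3, Chst13, Krt14, Pigc and Tagln2), all below 0 as in their dye effect. The dye count of 17 of 1703 was 1 to 26 with 1 replicate left out, of the totals given above. Of the same 1703 genes it was 29 under median centring, 10 under normexp and 30 with arrays as units. With trend and robust eBayes it was 0 of 1703, where 132 genes had an unadjusted p under 0.05. It was 7 of 1104 from the scan with most spots and 10 of 957 where all 3 replicates at 18 h were needed. From the authors' values it was 10 of 1242. The causes were not tested. The sign of the difference held under every alternative that gave a value for 21 of the 24 genes of smallest p. It turned for Cpn2 with tumor in Cy3 alone (-0.39), for Pfn3 with tumor in Cy5 alone (-0.19) and for Sema4b in the authors' values (-0.06). These genes were chosen for their differences in the same arrays, and some alternatives leave the estimate unchanged. A kept sign is therefore no separate support. The size varied, and with tumor in Cy3 alone the difference was -0.02 for Dusp1, -0.03 for Fnbp4 and 1.14 for Sema4b. Of 29 list medians, the ion channel list alone kept its sign in all 22 alternatives, at -0.19 to -0.01, and 151 of 638 list values changed sign. Where an alternative changed which genes were tested, the members of a list could change with it. Some of the alternatives leave the channel median unchanged, and the median of all genes tested was itself below 0, at -0.02. The kept sign therefore does not make the channel median firm.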

Other observations

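The lowest difference of any gene, -0.98 ± 0.82 (SE), belonged to Timm13, a chaperone of mitochondrial import, which was named after its values were seen. It was at 3.06 in 18 h replicate 4 and between -0.11 and 0.08 in the other 4 replicates. Txn2, the mitochondrial thioredoxin, was at 1.71 in 72 h replicate 4 and between -0.33 and -0.07 in the 3 others measured.

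A total RNA replicate at 192 h with both orientations, replicate 4, gave values for 11 of the 24 genes with the smallest p. Plxdc1 was at 0.54, Tspan6 at 0.46, Rfc3 at 0.26, Iqcf4 at -0.42 and Cldn34d at -0.32. Fnbp4 was at 0.36, Snap91 at 0.14, Snap25 at 0.07, Zswim1 at -0.23 and Trim34a at -0.14. Nsg2 was at -0.01. This single replicate entered no comparison.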
